A study of Homo sapiens with 54 samples.

Results

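The regions described here are the places on chromosomes 1 to 22 and X where chromatin immunoprecipitation followed by sequencing (ChIP-seq) with a progesterone receptor (PR) antibody gave a peak in T47D cells. All rows of the vehicle list and of the R5020 list were taken, 179777 regions of the 520465 rows in the 16 peak lists of the series. T47D is an established human breast cancer cell line, labelled as positive for estrogen receptor and PR. The cells were grown in serum-containing medium and given ethanol (the vehicle) or R5020, a synthetic progestin, for 1 h. The labels give no concentration of R5020. Both groups are the same unmodified cell line, with 3 libraries each made with the PR antibody F-4, and each group is represented by 1 list.

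How the 3 libraries were combined into a list is not stated, and the sequencing depth is unknown. More binding and deeper libraries therefore cannot be told apart in the number of regions. With 1 list per treatment there was no spread between replicates and no test between treatments. Intervals in brackets are 95% intervals (Wilson for shares, order statistics for medians) and cover counting error only, since neighbouring regions are not independent.

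PR is a ligand-activated transcription factor of the nuclear receptor family. Without hormone it is held by the HSP90 chaperone machinery and its FK506-binding co-chaperones. With a progestin it binds DNA as a dimer at inverted repeats of a short hexamer, the same sequence that glucocorticoid and mineralocorticoid receptors recognise. In luminal breast cells its sites often lie in enhancers opened by FOXA1 and GATA3, and it is known to act in the same cells as the estrogen receptor.

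The DNA letters at PR summits could be read where a summit lay in a RefSeq start-site window (GRCh38.p14, 250 bases before and 50 after a start, 300 in all). Of 22132 windows on the chromosomes used, 4124 (18.6%) held an R5020 summit and 1439 (6.50%) a vehicle summit. A permissive form of the progesterone response element, GNACANNNTGTNC, was searched on both strands. It was present in 0.294% of all windows (0.231 to 0.374), in 0.824% of those with an R5020 summit (0.591 to 1.15) and in 0.278% of those with a vehicle summit (0.108 to 0.713). Among the 553 windows holding the summit of an R5020 region in the highest 20% of the list by fold enrichment, it was present in 12, or 2.17% (1.25 to 3.75). Fold enrichment is the authors' own value for each peak, summit signal relative to the background of the peak caller. It is used here within a list, except where a threshold of fold 5 was set on both lists. The part of the unknown depth in the results of such a threshold was not tested. Of 4847 windows with H3K27Ac in vehicle but no R5020 region, 3 (0.0619%, 0.0211 to 0.182) held the element, as did 21 of 7696 windows with neither (0.273%, 0.179 to 0.417). H3K27Ac is histone H3 acetylated at lysine 27, a mark of active promoters and enhancers.

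These 12 windows belong to 11 genes and hold the element at 10 distinct positions, since OR7A5 and OR7C1 list the same one. The 6 with the highest fold are shown on the gene's strand with 8 bases on each side. They were taken only from windows that held the element, so they do not show what lies under most strong R5020 summits. The genes were chosen after the motif counts were seen. The 13 bases of the element are in capitals.
CBLB: cacgggagGGACACTTTGTCCcctcccag
SMARCD2: gctgccagGGACAGTGTGTGCaaggcaga
H1-3: ctcgtagaGGACATGCTGTTCtgacagtt
TXNIP: agccaggaGCACACCGTGTCCacgcgcca
MAP3K6: gcacagggGCACAGGCTGTTCcggaagcc
EEF2K: ggagaaccGGACACTGTGTACtcagcagg

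The CBLB element, by a gene for a ubiquitin ligase, lies at chr3:105868419-105868431 on the minus strand, and its middle was 9 bp from the summit of an R5020 region of fold 34.8. The SMARCD2 element, by a gene for a chromatin remodelling subunit, lies at chr17:63838720-63838732 on the minus strand and was 2 bp from a summit of fold 34.5. The H1-3 element, by a linker histone gene, lies at chr6:26234979-26234991 on the minus strand and was 2 bp from a summit of fold 26.9. All 3 regions carried H3K27Ac in vehicle, and of the 3 the SMARCD2 region alone overlapped a vehicle PR region. The TXNIP element, by a gene for a thioredoxin inhibitor, lies at chr1:145996742-145996754 on the minus strand, 4 bp from a summit of fold 21.4. The MAP3K6 element (chr1:27367101-27367113, minus strand) was 13 bp from a summit of fold 19.6. The EEF2K element (chr16:22206089-22206101, plus strand) was 3 bp from a summit of fold 16.6.

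Over the 10 summits of the highest 20% by fold whose window held the permissive element, the median distance from its middle to the summit was 6.5 bp (range 2 to 39). The single receptor hexamer AGAACA, which can overlap the permissive element but not lie wholly within it, was present in 21.9% of windows with such a summit (18.6 to 25.5). It was present in 11.7% of all windows and in 12.2% of those with any R5020 summit. Without an R5020 region it was present in 7.45% of windows acetylated in vehicle and in 16.8% of the others, whose median GC content was 53.0%. Distances were measured where the window held the sequence, so their shares are not shares of all summits. Of the 114 summits of the highest 20% whose window held a hexamer, 49.1% had one within 25 bp (40.1 to 58.2), against 30.0% of the 360 such summits of lower fold (25.5 to 34.9). The GC box GGGCGG is a promoter element bound by SP1. Of the 274 summits of the highest 20% whose window held a GC box, 10.9% had one within 25 bp (7.78 to 15.2), against 31.7% of the 2322 such summits of lower fold (29.9 to 33.7). Within windows that held the sequence, high-fold summits thus more often had a hexamer and less often a GC box within 25 bp than lower ones did. The forkhead sequence TGTTTAC was present in 4.16% of the windows with a summit of the highest 20% (2.79 to 6.16) and in 2.85% of all windows. The AP-1 sequence TGANTCA was present in 5.97% (4.28 to 8.26) and 6.15%. The full palindrome, the hexamer and its inverted repeat around a spacer of 3 bases, was in 0 of the 22132 windows, which allows a share of up to 0.0136%, so its place at PR regions was not measured here.

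The vehicle summits lay in windows of another composition. The GC box was present in 84.2% of windows with a vehicle summit (82.2 to 86.0), in 69.6% with an R5020 summit (68.2 to 71.0) and in 56.3% of all windows. The hexamer AGAACA was present in 6.05% of windows with a vehicle summit (4.93 to 7.40). The median GC content was 70.0% in windows with a vehicle summit, 66.0% with an R5020 summit, 60.3% with an R5020 summit of the highest 20% by fold, and 62.3% over all windows.

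Among the genes of the 6 lists described below, 80 had a start-site window and 25 of these held an R5020 summit. The 250 bases before the start are shown for the 6 of highest fold, so that strong R5020 promoter sites of hormone-related genes can be compared. Capitals mark matches to the permissive element, the hexamer, the forkhead sequence or the AP-1 sequence, on either strand.
PRLR: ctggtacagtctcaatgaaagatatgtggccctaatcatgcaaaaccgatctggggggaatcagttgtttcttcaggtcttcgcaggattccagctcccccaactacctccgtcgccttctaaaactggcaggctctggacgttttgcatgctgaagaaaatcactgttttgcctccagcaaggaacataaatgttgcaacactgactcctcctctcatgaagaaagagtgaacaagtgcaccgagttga
TSC22D3: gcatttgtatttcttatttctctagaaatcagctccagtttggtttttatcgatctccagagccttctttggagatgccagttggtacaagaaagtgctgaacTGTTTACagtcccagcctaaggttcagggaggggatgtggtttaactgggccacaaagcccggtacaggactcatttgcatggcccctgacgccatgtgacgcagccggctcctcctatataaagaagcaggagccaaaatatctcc
IRS2: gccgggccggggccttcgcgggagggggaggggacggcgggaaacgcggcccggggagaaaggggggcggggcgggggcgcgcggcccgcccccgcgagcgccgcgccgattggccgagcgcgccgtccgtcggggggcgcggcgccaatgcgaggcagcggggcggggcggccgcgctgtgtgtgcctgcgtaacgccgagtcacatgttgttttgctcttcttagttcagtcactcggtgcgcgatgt
HSPA4: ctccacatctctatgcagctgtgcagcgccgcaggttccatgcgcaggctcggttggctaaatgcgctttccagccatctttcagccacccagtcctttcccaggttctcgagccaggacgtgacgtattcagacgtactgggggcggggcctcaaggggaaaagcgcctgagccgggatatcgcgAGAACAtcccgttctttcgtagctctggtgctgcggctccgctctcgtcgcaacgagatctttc
ESR1: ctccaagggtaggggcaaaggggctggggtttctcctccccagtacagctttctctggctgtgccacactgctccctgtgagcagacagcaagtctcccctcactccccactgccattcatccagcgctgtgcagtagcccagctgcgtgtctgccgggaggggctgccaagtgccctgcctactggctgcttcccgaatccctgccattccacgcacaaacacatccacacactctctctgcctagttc
EHF: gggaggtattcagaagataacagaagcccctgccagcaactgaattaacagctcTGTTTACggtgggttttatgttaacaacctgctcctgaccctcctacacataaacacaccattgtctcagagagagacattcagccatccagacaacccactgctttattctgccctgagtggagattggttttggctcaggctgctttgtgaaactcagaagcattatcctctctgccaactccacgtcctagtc

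The PRLR stretch (chr5:35230488-35230737, minus strand), before the prolactin receptor gene, holds none of the 4 sequences and lies under an R5020 region 869 bp wide of fold 37.7 that was also bound in vehicle. The TSC22D3 stretch (chrX:107717063-107717312, minus strand) precedes a classical glucocorticoid- and progestin-responsive gene and has 1 forkhead match. Its R5020 region had a fold of 29.9 and no vehicle counterpart. The IRS2 stretch (chr13:109786584-109786833, minus strand), before an insulin receptor substrate gene, is 76.4% GC and holds none of the 4. The HSPA4 stretch (chr5:133051763-133052012, plus strand), before an HSP70-family chaperone gene, has 1 hexamer. The ESR1 stretch (chr6:151805455-151805704, plus strand), before a start of the estrogen receptor gene, lay under the narrowest of the 6 regions, 522 bp, and was the only one of the 6 without H3K27Ac in vehicle. The EHF stretch (chr11:34632316-34632565, plus strand), before an epithelial ETS factor gene, has 1 forkhead match and was bound in both treatments. A match is a description of the letters and not a measured binding site.

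The vehicle list held 6662 regions and the R5020 list 173115, so that PR was called at 26.0 times as many places after 1 h of progestin. The log2 ratio was 4.70 (95% counting interval 4.66 to 4.73). Together the regions covered 2439 kb with vehicle and 65016 kb with R5020. Most vehicle regions had an R5020 region on at least 1 bp, 6103 of 6662 (91.6%, 90.9 to 92.3), and are called retained. From the other side, 5894 R5020 regions (3.40%) touched a vehicle region, called shared below, and 167221 did not. With 50% of both regions required to overlap, the shares were 31.6% (30.5 to 32.7) and 1.21% (1.16 to 1.27). Only 87 retained vehicle regions (1.43%) touched 2 or more R5020 regions, and 272 shared R5020 regions (4.61%) touched 2 or more vehicle regions. When the 6662 regions of highest -log10 q were taken from each list, 20.9% of vehicle regions had an R5020 counterpart (19.9 to 21.9). Most vehicle sites were thus not among the 6662 strongest hormone sites. Of those R5020 regions, 18.8% (17.9 to 19.7) touched a vehicle region, against 3.40% of the whole R5020 list.

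At the retained sites the R5020 region was usually the wider one. The median distance from a vehicle summit to the nearest R5020 summit was 95 bp (91 to 99). Summits lay within 100 bp of each other at 51.5% of sites and within 500 bp at 86.0%, distances that the required overlap of the regions itself limits. The R5020 region was the wider one at 89.9% of sites (89.1 to 90.6). Its median width was 830 bp (811 to 850), against 304 bp (298 to 309) for the vehicle region at the same place. A wide region meets the overlap rule more readily than a narrow one. The part of this in the widths at retained and shared sites was not tested.

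Over whole lists the widths were close, 292 bp with vehicle (287 to 298) and 280 bp with R5020 (279 to 281). Shared R5020 regions had a median width of 793 bp (779 to 810), and 36.0% were wider than 1 kb. R5020-only regions had a median of 274 bp (273 to 275), and 2.70% were wider than 1 kb. The 6662 R5020 regions of highest -log10 q had a median of 915 bp (905 to 927). Vehicle-only regions were the narrowest class, with a median of 222 bp (215 to 231) and 0.358% over 1 kb. Width rose with fold inside each list. R5020 regions of up to 200 bp had a median fold of 3.80 and those over 2000 bp, of which there were 470, a median of 34.5. For vehicle these medians were 3.58 and 22.8, the latter over 9 regions. The widest vehicle region, 11920 bp, and the widest R5020 region, 14461 bp, both lay in the first 10 Mb of chromosome 21.

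Vehicle PR regions stood nearer to gene ends than R5020 regions did. Counting the regions at most 1 kb from either boundary of a protein-coding gene (19974 RefSeq genes) gave 36.3% of vehicle regions (35.1 to 37.4) and 9.77% of R5020 regions (9.63 to 9.91). The shared R5020 regions resembled the vehicle list, with 38.9% (37.7 to 40.2), and the R5020-only regions gave 8.74% (8.61 to 8.88). The median distance to a gene end was 7057 bp with vehicle (6285 to 7860) and 25661 bp with R5020 (25399 to 25932). More than 100 kb from any gene end lay 15.4% of vehicle regions (14.6 to 16.3) and 20.5% of R5020 regions (20.3 to 20.7). Summits inside a gene span, which includes introns, made up 48.1% of the vehicle list and 55.9% of the R5020 list. Among regions of fold 5 or more, 16.8% with vehicle (15.2 to 18.6) and 8.93% with R5020 (8.76 to 9.10) lay that near to a gene end. The plot of cumulative distance shows the classes side by side.

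**Figure D1:**
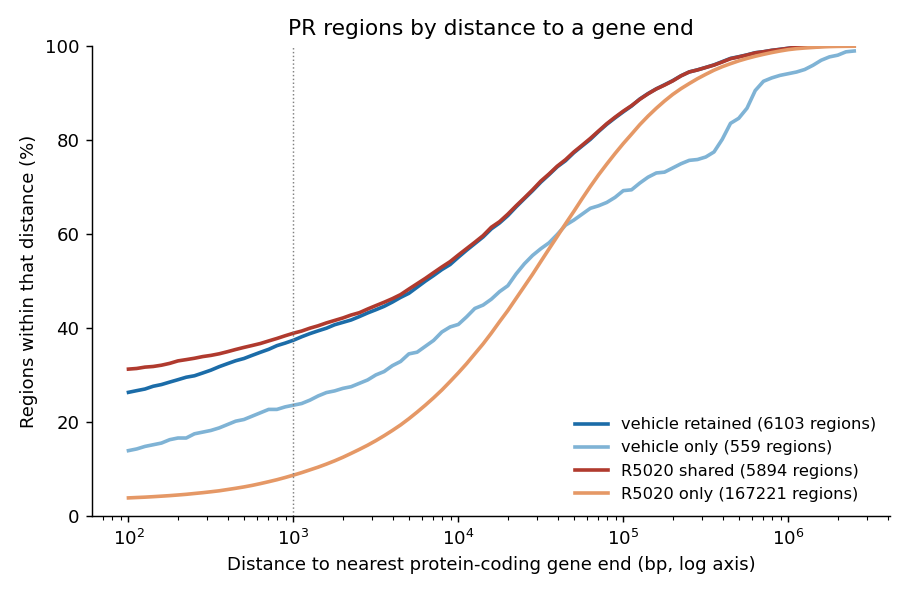
Share of PR regions (y axis, %) within a given distance (x axis, bp, log scale) of the nearest protein-coding gene end, for the 4 classes of region; the dotted line marks 1 kb. Retained vehicle regions and shared R5020 regions run together and reach 37.4% and 38.9% at 1 kb, while R5020-only regions reach 8.74% and vehicle-only regions 23.6%.

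The nearness was to the 5′ end of genes. Where the strand was known, 27.9% of vehicle regions lay within 1 kb of a 5′ end (26.8 to 28.9) and 3.63% within 1 kb of a 3′ end (3.21 to 4.11). For R5020 the shares were 6.36% (6.25 to 6.48) and 2.02% (1.95 to 2.09). Strand and start sites were given for 15812 of the 19974 genes, so these shares are lower limits. Vehicle summits within 1 kb of a start leaned to the upstream side, with 1321 before it and 755 after it, or 63.6% before (61.5 to 65.7). R5020 summits divided almost evenly, with 5635 before and 6190 after, or 47.7% before (46.8 to 48.6). The 250 bp just before the start alone held 1002 vehicle summits, 15.0% of that list, and 2751 R5020 summits, 1.59% of that list.

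**Figure D2:**
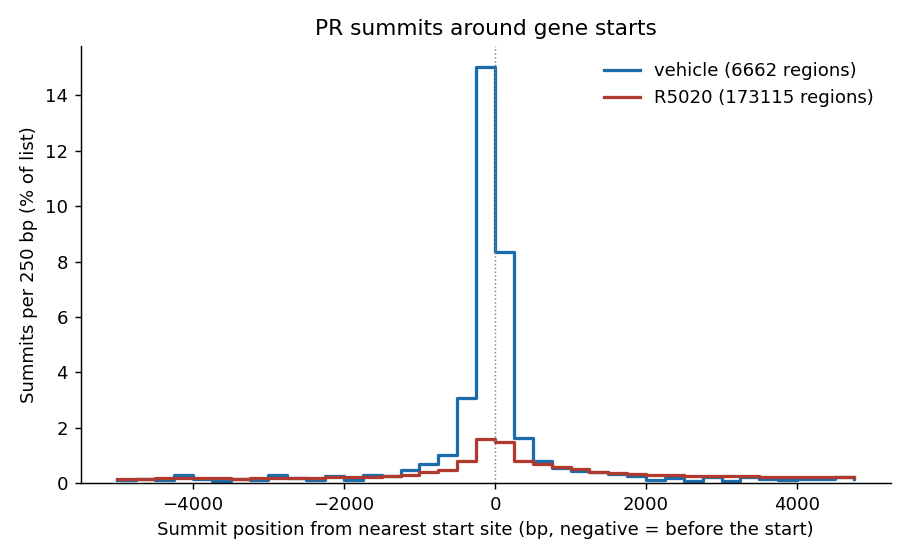
PR summits by position from the nearest start site (x axis, bp, negative before the start), as a percentage of each list per 250 bp (y axis). The vehicle curve peaks at 15.0% in the 250 bp before the start and the R5020 curve at 1.59% in the same bin.

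The classes differed in acetylation without hormone. A vehicle H3K27Ac region overlapped 89.6% of the PR regions in the vehicle list (88.9 to 90.3) and 26.0% of those in the R5020 list (25.8 to 26.2). It overlapped 94.6% of shared R5020 regions (93.9 to 95.1), 23.6% of R5020-only regions (23.4 to 23.8) and 61.5% of vehicle-only regions (57.4 to 65.5). The difference was also present away from gene ends. Farther than 1 kb from a gene end, 84.6% of vehicle regions (83.5 to 85.7) and 20.5% of R5020 regions (20.3 to 20.7) were acetylated in vehicle. Of the R5020 regions, 117643 (68.0%) had H3K27Ac in neither treatment and 10462 (6.04%) had it with R5020 alone. Another 5833 (3.37%) had it with vehicle alone. With 50% of both regions required to overlap, the order turned, at 1.14% with vehicle and 4.05% with R5020. Among the 6662 R5020 regions of highest -log10 q, 68.4% were acetylated in vehicle (67.3 to 69.5).

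Gene starts showed the same pattern. Of 11027 genes with vehicle H3K27Ac within 1 kb of a start, 2150 (19.5%, 18.8 to 20.2) had a vehicle PR region there and 8764 (79.5%, 78.7 to 80.2) an R5020 PR region. Of 4785 genes without the mark, 0 had a vehicle PR region, which allows a share of up to 0.0627%. R5020 PR regions stood at 690 of these unmarked starts, or 14.4% (13.5 to 15.4).

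Maf1, a repressor of RNA polymerase III profiled in the same cells, was found more often at shared than at R5020-only PR regions. Its R5020 regions overlapped 73.9% of shared R5020 PR regions (72.73 to 74.98) and 7.95% of R5020-only ones (7.82 to 8.08). Shared regions were also wider (median 793 bp against 274 bp) and of higher fold (median 11.1 against 5.79). The part of width and fold in the overlaps with Maf1 and H3K27Ac was not tested. POLR3A, the largest polymerase III subunit, overlapped 0.127% of R5020 PR regions (0.111 to 0.144) in its R5020 list.

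Vehicle regions of high fold lay away from gene ends, and R5020 regions of high fold were those most often acetylated and found with Maf1. Each list was divided into 5 equal parts by fold. In vehicle, the share retained with R5020 was 83.3% in the lowest part (81.2 to 85.2) and 97.3% in the highest (96.3 to 98.0). The share within 1 kb of a gene end went the other way, from 49.2% in the lowest (46.5 to 51.9) to 13.7% in the highest (11.9 to 15.6). Vehicle H3K27Ac stayed between 87.5% and 92.0% in all 5 parts. With R5020, the gene-end share lay between 8.40% and 13.0%. The share also found in vehicle was 1.88% to 2.81% in the lower 4 parts and 7.80% in the highest (7.52 to 8.09). Vehicle H3K27Ac was at 18.3% to 25.1% in the lower 4 parts and 43.0% in the highest (42.5 to 43.5). R5020 Maf1 was at 4.06% to 5.73% in the lower 4 and 32.9% in the highest (32.4 to 33.4).

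**Figure D3:**
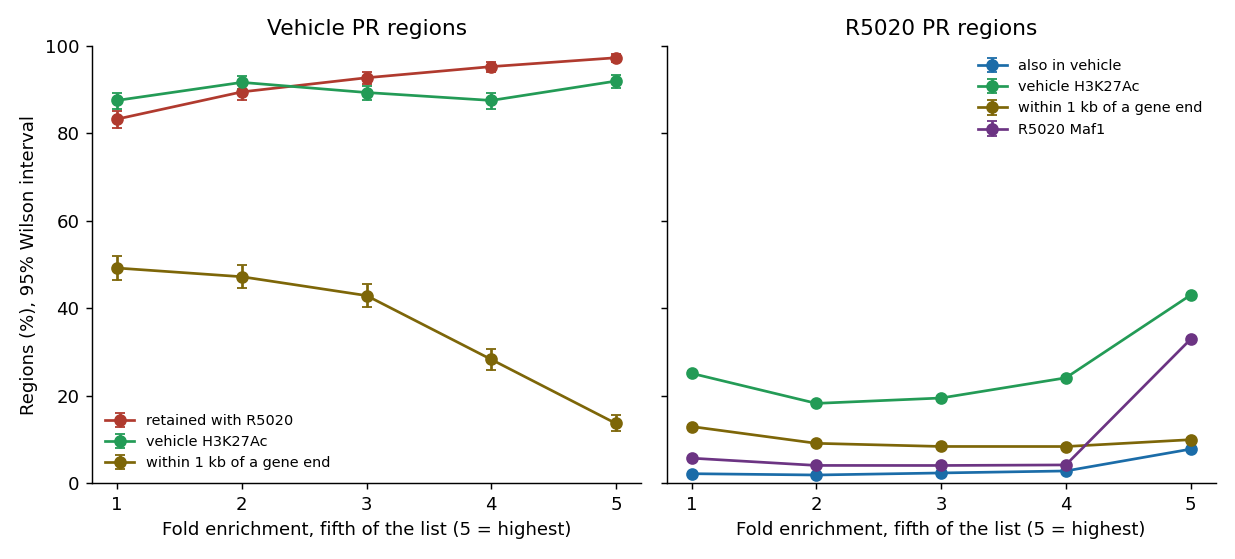
Share of regions (y axis, %, bars are 95% Wilson intervals) in 5 equal parts of each list by fold enrichment (x axis, 5 is highest), for vehicle on the left and R5020 on the right. Vehicle regions near gene ends go from 49.2% to 13.7%, and R5020 regions with R5020 Maf1 stay at or below 5.73% before reaching 32.9% in the highest part.

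R5020 regions, far more numerous, lay closer together along the chromosome than vehicle regions. The median gap between neighbours was 5726 bp with R5020 (5665 to 5785) and 88633 bp with vehicle (83608 to 96614). Neighbours at most 12.5 kb apart were joined into groups. Of R5020 regions, 73.3% (73.1 to 73.5) stood in groups of 3 or more, against 19.9% of vehicle regions (19.0 to 20.9). With the 6662 R5020 regions of highest -log10 q the share was 14.4% (13.5 to 15.2), below the vehicle share. These regions were both fewer and stronger than the whole R5020 list, with a median width of 915 bp against 280 bp. The part of region number alone in the share was not tested. Joining at 5000 bp gave 46.2% for the whole R5020 list and joining at 25000 bp gave 88.7%. There were 54082 R5020 groups, of which 18625 had 3 or more regions and 336 ran over more than 100 kb. Vehicle H3K27Ac was more frequent in larger groups, at 7.19% of the 24757 isolated R5020 regions, 24.0% of those in groups of 3 to 9 and 51.4% of the 13300 in groups of 30 or more. The median fold rose less across the same classes, from 5.13 to 5.84 and 7.56.

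The group with the most R5020 regions, 111 over 285 kb (chr8:127782775-128067945), lay over PVT1, a long non-coding RNA gene next to MYC. Of its regions 75.7% carried vehicle H3K27Ac and 7 were also in vehicle. A group of 98 regions lay over ANKRD11 and SPG7 (chr16:89291596-89509232) and 96 lay over TNS3, a focal adhesion gene (chr7:47403204-47648784). The longest group, 306 kb with 95 regions (chr12:116101165-116406870), lay over MED13L, a subunit gene of the Mediator kinase module. A group of 91 regions lay over NDUFAF6, PLEKHF2 and CFAP418 (chr8:94990959-95278816). The other 2 of the 5 longest lay over DLG1 and BDH1 (70 regions, 272 kb, chr3:197288922-197560645) and over B4GALNT3, NINJ2 and WNK1 (67 regions, 264 kb, chr12:525824-789625). In these 7 groups 42.9% to 75.7% of regions had vehicle H3K27Ac, and 2 to 7 regions each were also in vehicle.

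In the vehicle list, 7 groups had 10 or more regions, a size chosen after the values were seen. A group of 14 regions, all retained and all acetylated, lay at chr11:101325799-101360569 over the non-coding gene LOC105369458, with vehicle folds of 2.79 to 25.4 and R5020 folds of 3.65 to 39.8. Its nearest protein-coding gene in the table was TRPC6, 90995 bp away, and PGR, the PR gene itself, follows on the other side. A group of 15 regions, all retained and all acetylated, lay over DANT2 and DANT1 on chromosome X (115844052 to 115888465), with a median spacing of vehicle summits of 2977 bp. A group of 11, all retained and acetylated, lay in TNRC18 on chromosome 7. Of the remaining 4, there were 3 on chromosome 21 and 1 on chromosome 10. Those over RNA45SN1 and RNA45SN2, copies of the repeated ribosomal RNA precursor gene on chromosome 21, had 32 and 23 regions, of which 7 and 9 were retained. How reads from such repeats were counted is not stated.

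R5020 regions were densest on chromosomes 17 (87.0 per Mb), 20 (78.9) and 19 (71.5), and sparsest on X (27.5), 13 (37.6) and 18 (42.8), with 57.1 per Mb over all. Vehicle regions averaged 2.20 per Mb. The number of R5020 regions per vehicle region ranged from 13.3 on chromosome 21 to 51.3 on chromosome 18. On chromosome 21, 77 of 183 vehicle regions lay in the first 10 Mb. Copy number of T47D chromosomes was not measured here, and its part in these densities was not tested. In 3043 windows of 1 Mb the median was 50 R5020 regions and the maximum 242. R5020 was absent from 149 windows and vehicle PR from 1342. Across windows, which share libraries and mappability, Spearman's rho of R5020 PR was 0.916 with vehicle H3K27Ac, 0.768 with vehicle PR and 0.698 with gene starts. The 10% of windows with most regions held 24.5% of R5020 and 47.7% of vehicle regions.

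**Figure D4:**
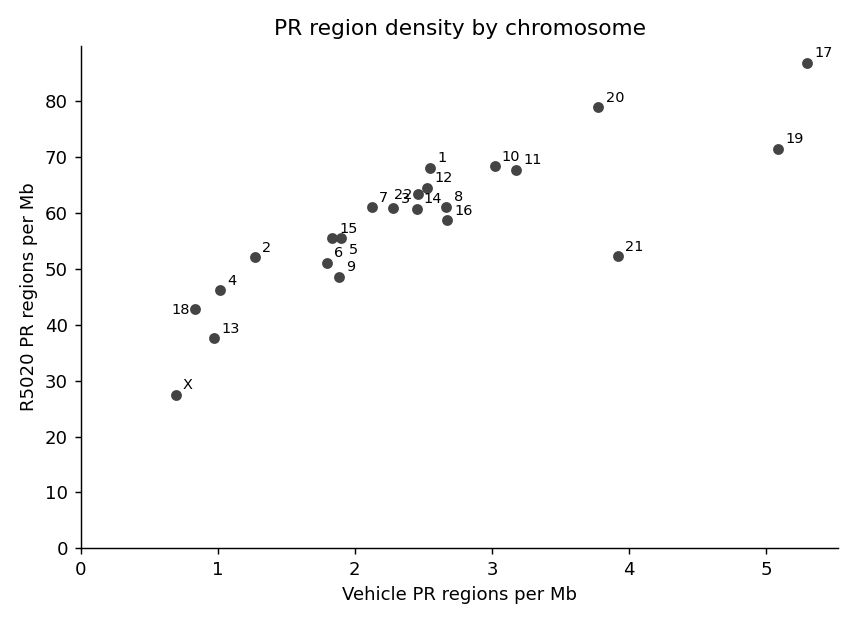
PR regions per Mb of each chromosome with vehicle (x axis) and with R5020 (y axis); each point is a chromosome, labelled by name. Chromosome 17 is highest on both axes at 5.30 and 87.0, X is lowest at 0.692 and 27.5, and chromosome 21 lies to the right of chromosomes of like R5020 density.

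Most genes had a PR region nearby after hormone. Within the gene span and 10 kb on each side, 18091 of 19974 protein-coding genes (90.6%) had an R5020 region and 4667 (23.4%) a vehicle region. From equal numbers of top regions, 18.6% of genes had an R5020 region and 23.4% a vehicle region, so the order turned. From regions of fold 5 or more, 82.2% had an R5020 region and 5.56% a vehicle region. Of all genes 4658 had both, 9 had vehicle alone and 1874 had neither. The median gene had 5 R5020 regions and the gene at the 90th percentile had 16. AUTS2, a long neurodevelopmental gene, had the most at 163, followed by GSE1 (159), RAD51B (157), DLG2 (149), KCNMA1 (134), GPHN (133), STARD13 (115) and PRKCE (113). All are long, from 507 kb for GSE1 to 2173 kb for DLG2. GSE1 also had 23 vehicle regions, the most of any gene, and all 23 were retained. Per length, the densest genes with at least 10 regions included HOXC10 at 83.6 regions per 100 kb, EXOC3L1 (58.2), IRF2BP2 (57.9), HOXC11 (57.1), KRT13 (56.8), HOXC9 (56.1) and KRT15 (55.7). Over all genes the median was 8.54 per 100 kb. The HOXC genes, which pattern the body axis, and the keratin genes are neighbours and share regions.

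The label of the cells was checked against vehicle H3K27Ac within 1 kb of a gene end, found at 68.3% of all protein-coding genes. All 12 luminal breast markers, among them KRT8, KRT18, EPCAM, GATA3, FOXA1 and ESR1, carried it. Of 8 basal and mesenchymal markers 3 did, and of 6 blood markers 4 did.

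Vehicle H3K27Ac within 1 kb of a gene end was at 68.3% of all genes. It was at 15 of 15 chaperone, 18 of 20 receptor and coregulator, 22 of 25 progestin-responsive and 12 of 14 estrogen-responsive genes. It was at 7 of 14 mediator genes and 4 of 20 genes of other tissues. Median span was 157 kb for the receptor list, 11.0 to 31.4 kb for the other lists and 24.2 kb for all genes. The part of acetylation and span in the list values below was not tested. For the genes of the receptor's chaperone complex, 9 of 15 had a vehicle region (all genes 23.4%) and 15 of 15 an R5020 region (all genes 90.6%). Their median density was 19.8 R5020 regions per 100 kb (all genes 8.54). At starts, 8 of the 12 with a known start had a vehicle region (all genes 13.6%) and 12 of 12 an R5020 region (all genes 59.8%). FKBP5, a co-chaperone that progestins and glucocorticoids induce, had 46 R5020 regions, the most of the list. Its strongest R5020 region (chr6:35722305-35722949, fold 47.1) lay 5.92 kb inside the gene and had H3K27Ac with R5020 but not with vehicle. FKBP4, whose product FKBP52 assists PR directly, had a vehicle region of fold 21.1 (chr12:2795770-2796330), the highest vehicle fold of this list. PPID, for the cyclophilin co-chaperone, had no vehicle region and an R5020 region of fold 54.8 (chr4:158722247-158722878). HSP90AA1 and HSP90AB1, the cytosolic HSP90 genes, each had a vehicle region within 100 bp of a start, of folds 3.68 and 5.04.

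Among steroid receptors, pioneer factors and coregulators, 15 of 20 genes had a vehicle region (all genes 23.4%) and 20 of 20 an R5020 region (all genes 90.6%), with a median of 16.0 R5020 regions per 100 kb (all genes 8.54). PGR had 5 vehicle regions. At its start, a single R5020 region 2767 bp wide (chr11:101127309-101130075, fold 42.9) covered the 4 that were retained. The fifth, in the gene body (chr11:101034054-101034450), had the highest vehicle fold of PGR, 10.1, and no R5020 region within 5 kb, the nearest being 5176 bp away. It carried H3K27Ac in both treatments. ESR1 had 84 R5020 regions and 4 vehicle regions, and its strongest R5020 region (chr6:152089713-152090354, fold 51.0) lay 281 kb from the nearest start. The related receptor genes NR3C1 and NR3C2 had 0 vehicle regions, and 15 and 18 R5020 regions. NR3C2, the mineralocorticoid receptor gene, held one of fold 55.5 (chr4:148305611-148306445). GATA3 had 11 vehicle regions and 24 R5020 regions, or 48.1 per 100 kb, and FOXA1 had 5 and 11. For GATA3, 3 of the 11 vehicle regions were not retained, and each had an R5020 region within 283 bp.

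Of 25 progestin-responsive genes, 12 had a vehicle region (all genes 23.4%) and 25 an R5020 region (all genes 90.6%), with a median of 18.0 R5020 regions per 100 kb (all genes 8.54). At starts, 3 of 18 had a vehicle region (all genes 13.6%) and 15 of 18 an R5020 region (all genes 59.8%). None of the 12 had its highest vehicle fold in the top 10% of the vehicle list. That count is near the share of all genes with a vehicle region, 7.52%. The highest R5020 fold lay in the top 10% of the R5020 list for 15 of 25 (all genes with an R5020 region 41.3%). KLF9, a progesterone-induced Krüppel-like factor gene, had an R5020 region of fold 53.1 and 3656 bp (chr9:70418169-70421824), upstream of its start. STAT5A, whose product relays prolactin signals, had one of fold 49.3 (chr17:42294215-42295038) with H3K27Ac under R5020 and not under vehicle. ZBTB16, a progestin-induced zinc finger gene, had one of fold 44.4 (chr11:114178570-114180150) that was also in vehicle and likewise acetylated with R5020 alone. HSD11B2, which inactivates cortisol, had one of fold 46.98 (chr16:67423541-67424213). The lowest were SGK1, a kinase gene, with a highest fold of 8.22, MYC with 7.03 and SNAI2 with 5.34. CCND1, the cyclin D1 gene, had 1 vehicle region (fold 4.15) that was not retained and 9 R5020 regions, the nearest 1057 bp from it.

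Of 14 estrogen-responsive genes, 9 had a vehicle region (all genes 23.4%) and 14 an R5020 region (all genes 90.6%), with a median of 17.8 R5020 regions per 100 kb (all genes 8.54). In 8 of the 9 the highest vehicle fold lay in the top 10% of the vehicle list (all genes with a vehicle region 7.52%). The median percentile was 98.1 (all genes with a vehicle region 49.3). RARA, a retinoic acid receptor gene, led with 49.1, followed by GREB1 (39.2), an estrogen receptor cofactor gene, IGFBP4 (34.2), MYB (25.5), XBP1 (18.4), SIAH2 (15.4), CA12 (13.2) and TFF1 (11.3). CELSR2 was the exception at 4.22. The strongest vehicle region of each was retained. In the R5020 list MYB had a highest fold of 56.4 and GREB1 of 56.1, both at percentile 99.9 of that list, while TFF1 reached 12.6 and PDZK1 8.62. The position of estrogen receptor was not measured in the series, and its part in the vehicle regions was not tested.

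Of 14 genes for mammary paracrine and alveolar mediators, 2 had a vehicle region (all genes 23.4%) and 12 an R5020 region (all genes 90.6%), with a median of 8.66 regions per 100 kb (all genes 8.54). PRLR had 66 R5020 and 4 vehicle regions, and EHF 25 and 8. CXCL13, a chemokine gene, had no vehicle region and an R5020 region of fold 55.1. TNFSF11, the RANK ligand gene, had 3 R5020 regions with a highest fold of 31.8. WNT4 had 4 with a highest fold of 11.1. WNT5A and CSN2, the beta-casein gene, had 0 in both lists. Of 20 genes of other tissues, 3 had a vehicle region (all genes 23.4%) and 18 an R5020 region (all genes 90.6%), with a median of 4.85 per 100 kb (all genes 8.54). None of the 12 with a known start had a PR region within 1 kb of it in either list (all genes 13.6% with vehicle and 59.8% with R5020), which allows a share of up to 25.0%. ALB and APOA2, liver genes, had 0 regions, and SYT1, a neuronal gene, had 36.

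**Figure D5:**
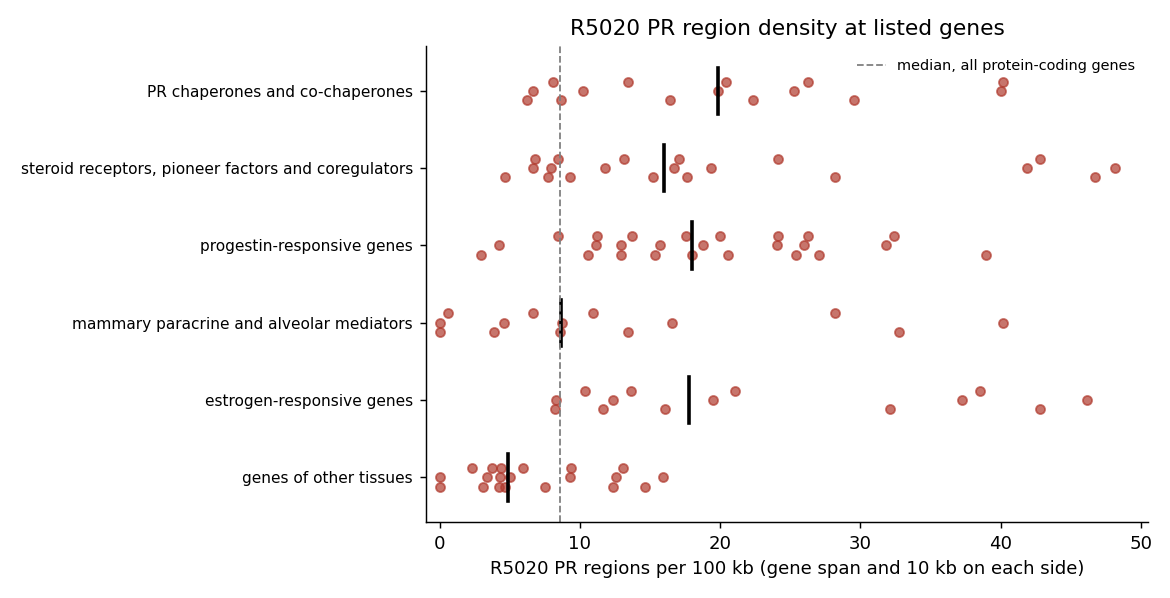
R5020 PR regions per 100 kb (x axis) for each gene (points, spread vertically for legibility) of the 6 gene lists; black bars are list medians and the dashed line is the median of all protein-coding genes, 8.54. The medians of 4 lists lie between 16.0 and 19.8, the mediators are at 8.66 and the genes of other tissues at 4.85.

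Single regions show the range of settings. The 3 vehicle regions of highest -log10 q were all retained and acetylated. One of fold 57.4 lay outside protein-coding gene spans, 38359 bp from CYP2A7 (chr19:40920590-40922093). One of 48.9 lay beside the keratin gene KRT37 (chr17:41415242-41416516), and the last was the one in RARA (chr17:40321702-40322809). In the R5020 list 174 regions tied at the highest -log10 q, 421, and taking the first by fold and position named 6 regions on chromosome 1. The shared ones were in ZBTB40 (chr1:22472242-22473458), 64091 bp from TINAGL1 (chr1:31510379-31512424) and 26527 bp from SPOCD1 (chr1:31842549-31843945). Those with R5020 alone were at a pair of sites in PEX14, 3998 bp wide (chr1:10514154-10518151) and 1100 bp wide (chr1:10555377-10556476), and in IFFO2 (chr1:18944557-18945539). All 6 had a fold of 56.6, H3K27Ac in both treatments and an R5020 Maf1 region.

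The 559 vehicle regions without an R5020 counterpart had lower folds and widths than the retained ones. Their median fold was 3.44 (3.33 to 3.52) within the vehicle list, against 4.08 for retained regions (4.04 to 4.12). The median distance to the nearest R5020 region was 1944 bp (1372 to 2293), 39.4% lay within 1 kb and 20.0% beyond 10 kb, in a list whose neighbouring regions are a median of 5726 bp apart. Those of highest -log10 q were in CACNA1H, a calcium channel gene (chr16:1190732-1192024, fold 12.9), in ZMIZ1, a coactivator gene (chr10:79158507-79158824, 9.76), and 6048 bp before MED13L (chr12:116283741-116284102, 12.7). All 3 had H3K27Ac in both treatments. Vehicle POLR3A overlapped 40 of the 559 (7.16%, 5.30 to 9.60) and 37 of the 6103 retained (0.606%, 0.440 to 0.834). Of the 40, 15 were in the first 10 Mb of chromosome 21 and 7 within 2 kb of a 5S ribosomal RNA gene. In the rest of the genome the shares were 3.56% (2.26 to 5.55) and 0.478% (0.333 to 0.685).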

How the data were processed

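PR ChIP-seq peak lists of T47D cells given vehicle or R5020 were compared, 1 list per treatment and 3 libraries per list. Per the submitters' processing notes, cutadapt, Bowtie2, MACS2 and hg38 were used, with versions, roles and settings not given in the sources used here. The authors deposited for each peak a fold enrichment (a ratio), the -log10 of its q-value and its summit. How replicates were combined is not stated, and no read counts were given, so the depth is unknown.

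All rows on chromosomes 1 to 22 and X were used (columns of other samples: 0). Overlap meant at least 1 bp. Start coordinates were converted to count from 1. Genes and sequences came from RefSeq (GRCh38.p14): spans of 19974 protein-coding genes, and strand and start windows for 15812, none of them on chromosome 8. The fold and q columns were used within a list, except for the thresholds of fold 5 and -log10 q 5 set on both lists. Overlaps, distances and groups were computed with numpy 2.4.6 under Python 3.11.15, intervals with scipy 1.17.1 and plots with matplotlib 3.10.9, after the steps were tested on simulated data. No test across lists was made, since each treatment has 1 list. Alternatives were stricter peak thresholds, equal list lengths, 50% overlap, and other distances and joins.

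Named regions were the 3 of highest -log10 q in each class. Named genes were the 8 with most R5020 regions, the 8 densest, the 5 fullest and 5 longest groups, the 3 highest and 3 lowest chromosomes, up to 6 promoters, and members of 6 gene lists and 3 marker lists. The regions, members and lists were chosen with earlier results of these data known. Some items that the naming rule covers are not reported here.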

Additional observations from a re-analysis of the deposited data

Results flagged for a closer look

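PR regions outside chromosomes 1 to 22 and X were not part of the comparison. The R5020 list held 464 of them (0.267% of its rows) and the vehicle list 69 (1.03%), a signal in rows left out of the report and larger in number with R5020 than in the vehicle control. Its share of the list was larger with vehicle.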

How the results depend on the processing

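No paired analysis was possible because each treatment has 1 list, which carries no replicate number, and no replicate could be left out. Of 48 alternative values for 12 results, 13 stayed within the interval of the deposited lists (within 1.5 times for gene counts) and 35 moved. Of the 13, 4 are vehicle values with equal list lengths, where the whole vehicle list is taken and nothing could move. In every alternative the vehicle list kept the larger share at gene ends and, except under 50% overlap, with H3K27Ac.

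Keeping -log10 q of at least 5 left 4530 vehicle and 155816 R5020 regions. The log2 ratio was then 5.10, the R5020 regions also in vehicle 2.58%, gene-end shares 29.7% (vehicle) and 9.13% (R5020), median widths 339 and 295 bp, R5020 regions in groups of 3 or more 70.5%, and R5020 regions with H3K27Ac 25.8%. Keeping folds of at least 5 left 1818 and 104027. The log2 ratio was then 5.84, retention 89.8%, R5020 also in vehicle 1.54%, gene-end shares 16.8% and 8.93%, widths 461 and 365 bp, groups 60.1%, genes with a vehicle region 5.56%, and H3K27Ac 90.9% (vehicle) and 28.9% (R5020).

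With 6662 regions from each list, retention was 20.9%, R5020 also in vehicle 18.8%, the R5020 gene-end share 11.3%, R5020 width 915 bp, groups 14.4%, genes with an R5020 region 18.6% and R5020 regions with H3K27Ac 68.4%. By construction this keeps the strongest R5020 regions. Requiring 50% of both regions gave retention of 31.6%, R5020 also in vehicle 1.21%, and H3K27Ac at 1.14% (vehicle) and 4.05% (R5020). Within 5 kb of a gene end lay 46.3% of vehicle and 21.6% of R5020 regions. Joining at 5000 and 25000 bp gave groups 46.2% and 88.7%, and a gene window of 50 kb gave 38.2% of genes with a vehicle region. Retention without the first 10 Mb of chromosome 21, chosen after seeing the data, was 92.2%. The cause of the other shifts was not tested.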
